A study of Homo sapiens with 12 samples.

Results

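Of 10684 CCGG-dense windows of the human genome, 32 (0.3%) were read as methylated in all DNA samples of the renal carcinoma line labelled 769 and as open to cutting in both ascorbic acid treated samples of the line labelled 786. They were taken from fixed windows of 1 kb on chromosomes 1 to 22. An eligible window spanned at least 10 reference CCGG sites and held at least 10 MspI tags in each MspI library. For each DNA sample, R is the window's share of nuclear HpaII tags divided by its share of nuclear MspI tags, so that R of 1 is the mean of the whole nuclear genome. A window was kept where R was 0.2 or less in all 3 samples of 769 and 1 or more in both ascorbic acid samples of 786. The 786 control was not used by this rule. The windows were thus chosen by R in the other 5 DNA samples, which is given below as a description with no test. The eligible windows were themselves drawn from 13918 dense windows, out of 431754 windows with any listed site.

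The study read cytosine methylation in 2 clear cell renal cell carcinoma lines, 769 and 786, with and without ascorbic acid (AA). Each line gave 1 control and 2 AA-treated DNA samples, labelled AA1 and AA2, and each DNA was cut with HpaII and with MspI for a library of its own, 12 libraries in all. The labels give no dose or time and do not say whether AA1 and AA2 came from separate cultures, so the p-values below measure the spread between these samples, which may be technical. With 1 cell line on each side, the line and anything else that differed between its cultures cannot be told apart. The libraries held between 189704 tags, in the HpaII library of the 786 control, and 12442031. Tags were amplified by PCR with no molecular identifier described, so intervals and floors below cover counting error only.

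HpaII cuts CCGG only where its inner cytosine carries neither a methyl nor a hydroxymethyl group, whereas methylation does not stop MspI. A window with MspI tags and no HpaII tags is therefore read as methylated, where the HpaII library is deep enough. Clusters of CpG, of which CCGG holds one, mostly lie unmethylated near gene starts in normal cells. In tumours and tumour lines many of them gain methylation, often at genes that direct development, and which clusters do so differs from one line to another. The TET enzymes oxidise methylated cytosine and use ascorbic acid as a cofactor.

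The sequences before the starts of 3 genes show where the tags were counted. In each of these genes a RefSeq start site lay in a window of the set, and the promoter before it was found in the files by the spacing of its CCGG sites. CRACR2A encodes a calcium-binding regulator of store-operated calcium entry, RAB34 a small GTPase of membrane traffic and cilium formation, and SNX10-AS1 is an RNA antisense to the sorting nexin gene SNX10. The 250 bases before each start are given 5′ to 3′ on the gene's own strand, from RefSeq on GRCh38.p14, with the motif searched, CCGG, in capitals. CRACR2A lies on the minus strand at chr12:3753110-3753359, RAB34 on the minus strand at chr17:28717869-28718118, and SNX10-AS1 on the minus strand at chr7:26376702-26376951.
CRACR2A: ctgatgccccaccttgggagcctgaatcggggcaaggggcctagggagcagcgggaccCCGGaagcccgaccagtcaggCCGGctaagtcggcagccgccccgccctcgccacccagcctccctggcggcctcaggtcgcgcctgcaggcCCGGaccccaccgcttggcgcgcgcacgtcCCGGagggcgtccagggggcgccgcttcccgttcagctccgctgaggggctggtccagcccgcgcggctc
RAB34: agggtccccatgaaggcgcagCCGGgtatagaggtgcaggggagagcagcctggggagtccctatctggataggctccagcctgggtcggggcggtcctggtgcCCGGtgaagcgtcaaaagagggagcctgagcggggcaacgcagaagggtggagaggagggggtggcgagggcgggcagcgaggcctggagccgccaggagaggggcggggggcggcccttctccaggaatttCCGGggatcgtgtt
SNX10-AS1: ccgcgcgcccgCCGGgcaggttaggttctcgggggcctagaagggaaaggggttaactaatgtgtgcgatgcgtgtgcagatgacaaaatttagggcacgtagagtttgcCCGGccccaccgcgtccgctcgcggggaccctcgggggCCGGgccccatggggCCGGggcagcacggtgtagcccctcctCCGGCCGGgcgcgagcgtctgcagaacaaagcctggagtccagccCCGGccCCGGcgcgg
CCGG reads the same on both strands and occurs at least once in 58.5% of the 35116 RefSeq promoter sequences used, and at least 3, 4 and 8 times in 27.3%, 17.5% and 1.6% of them. The stretches above hold 4, 3 and 8.

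At the CRACR2A promoter all 4 CCGG sites lay in the window, 192, 171, 100 and 70 bases before the start. Over these 4 sites the libraries of 769 held 0 HpaII tags in all, beside 131, 20 and 6 MspI tags in the control, AA1 and AA2. Those of 786 AA1 and AA2 held 176 and 49 HpaII tags, beside 46 MspI tags in each. The site 171 bases before the start had the most MspI tags of the 4 in the 769 control, 81, and no HpaII tag there. It held 78 and 13 HpaII tags in 786 AA1 and AA2. MspI gave 0 and 6 tags at this site in 769 AA1 and AA2, however, and none in any 786 library. The 786 control held 1 HpaII tag over the 4 sites, at 192 bases before the start.

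At RAB34 the CCGG 14 bases before the start is the only one of its 3 within the window. It held 128 and 17 HpaII tags in 786 AA1 and AA2 and none in 769, where MspI gave 33, 0 and 7 tags. At the 2 sites farther up, 229 and 146 bases before the start and outside the window, 786 AA1 still held 12 and 16 HpaII tags, beside 1 and 2 in 769 AA1. At SNX10-AS1, 6 of the 8 sites were listed in the files. The outermost of them, 239 bases before the start, held 80 HpaII tags in 786 AA1 and 0 in AA2, against 0, 2 and 0 in the 3 samples of 769. The site 102 bases before the start went the other way between the AA1 samples, with 10 HpaII tags in 769 AA1 and 1 in 786 AA1. The window of CRACR2A was thus without HpaII tags at every promoter site in 769, whereas that of SNX10-AS1 had them at 2 of its 6.

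Over the 32 windows together, HpaII left 33.5, 170 and 5.5 tags in 769 control, AA1 and AA2, against 5621.5, 2568.5 and 1792.5 MspI tags. The deposited values are expected counts, and not all of them are whole. In 786 AA1 and AA2 the same windows held 8597.5 and 3135.5 HpaII tags, against 2342.2 and 2708 MspI tags. Windows without any HpaII tag numbered 26, 4 and 27 of 32 in 769 control, AA1 and AA2, and 0 in either AA sample of 786. Median R was 0, 0.0225 and 0 in the 3 samples of 769, with highest values of 0.143, 0.172 and 0.0818. In 786 it was 2.19 in AA1, from 1.03 to 10.8, and 1.67 in AA2, from 1.01 to 13.5.

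These 786 values lay near the middle of what dense windows show, not above it. Over all eligible windows the median R was 1.90 and 2.16 in 786 AA1 and AA2, and 20 and 11 of the 32 windows were above it. The 769 samples were near 2 as well, with medians of 2.28, 2.34 and 1.90 over all eligible windows. Of the 1201 windows low in all 3 samples of 769, 845 were also at 0.2 or less in both 786 AA samples, 324 were between, and 32 were at 1 or more. The reverse pattern, R of 1 or more in all 3 samples of 769 and 0.2 or less in both AA samples of 786, was met by 49 windows. A further 5039 were at 1 or more in all 5 samples.

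**Figure D1:**
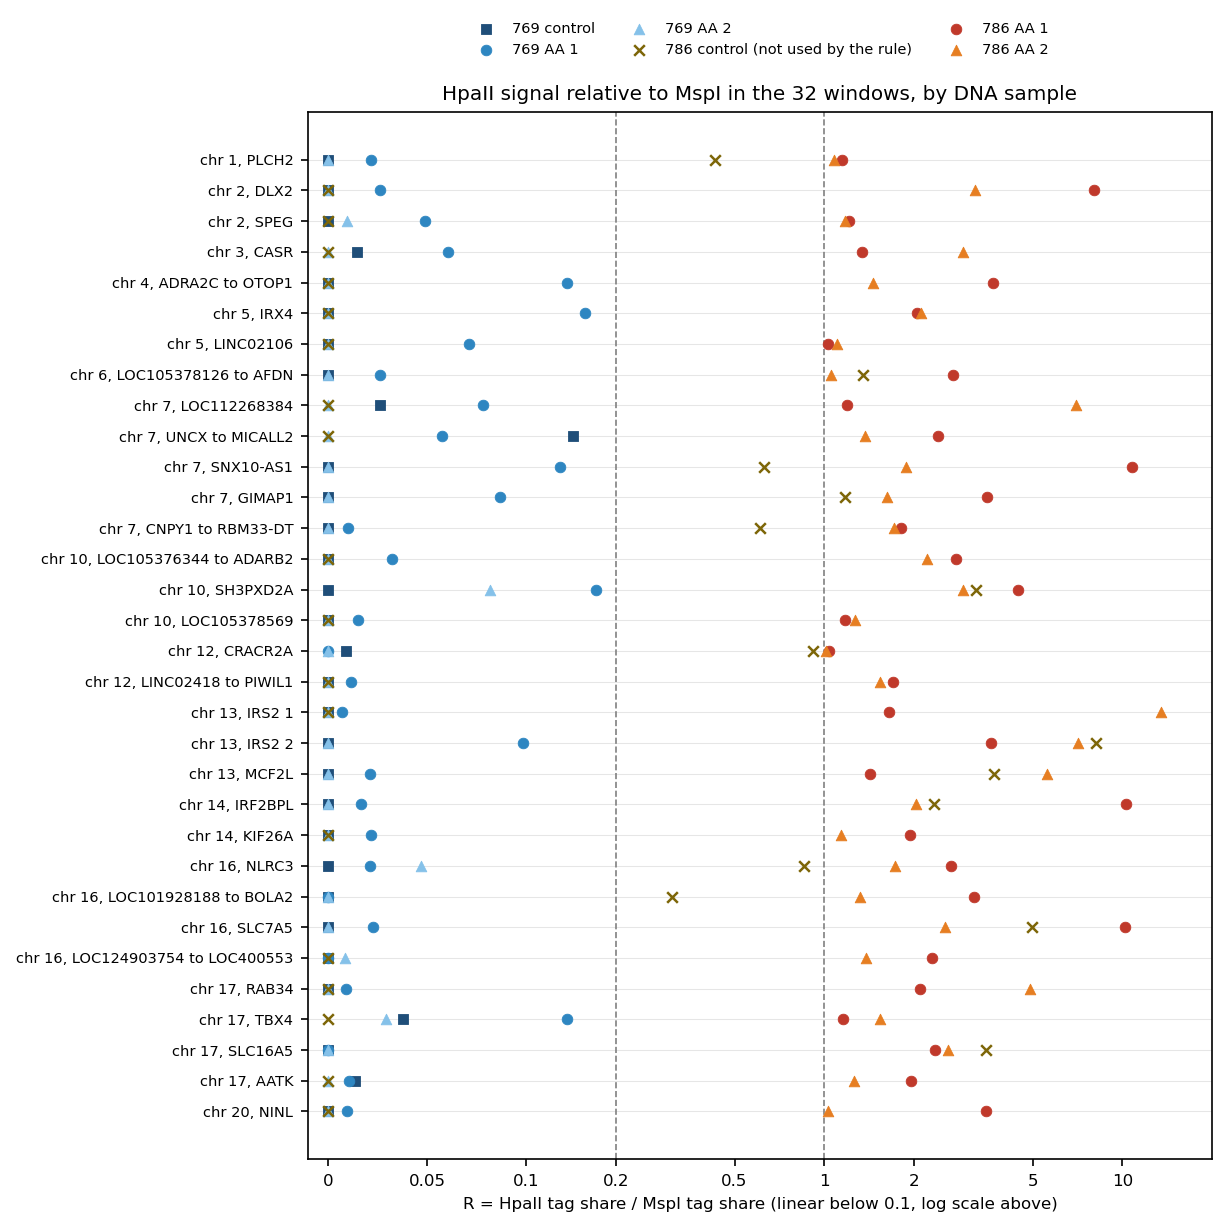
R of each of the 32 windows (rows, labelled by chromosome and nearest genes) in the 6 DNA samples, on an axis that is linear below 0.1 and logarithmic above it, with the thresholds of 0.2 and 1 as dashed lines. The 3 blue 769 samples lie at 0.172 or below and the 786 AA samples at 1.01 or above, as the rule required, while the 786 control (crosses) lies at 0 in 18 rows and reaches 8.15.

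The only 2 adjacent windows of the set lay in IRS2, which encodes an adaptor protein of the insulin and insulin-like growth factor receptors. They run from chr13:110434001-110435000 to chr13:110435001-110436000 (hg19). The first held 0, 1 and 0 HpaII tags in 769 control, AA1 and AA2, beside 79, 109 and 78 MspI tags. Its 786 AA samples held 165 and 113 HpaII tags, with R of 1.65 and 13.5, and its 786 control held none. The AA2 value rests on 14 MspI tags, the AA1 value on 60. The second held 0, 14.5 and 0 HpaII tags in 769 and 296 and 174.5 in the 786 AA samples, with R of 3.62 and 7.10. Its 786 control held 12 HpaII tags, the most of any of the 32, and R there was 8.15. In 769 AA1, 14 of its 14.5 tags lay at 1 site, 13 bases past the window's centre, at which no other library held a tag of either enzyme. In the second window the 786 control was also above all 3 samples of 769. The rule had set this for the AA samples, and the window is named for its tags in that control.

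Among genes that direct development, DLX2 and IRX4, both homeobox factors, and TBX4, a T-box factor of limb and lung development, lay at or within 5 kb of a window. The TBX4 window, chr17:59529001-59530000, in or across the gene, held 8, 22 and 1 HpaII tags in 769 and 406 and 129 in the 786 AA samples. R was 0.0378, 0.137 and 0.0295 in 769 and 1.15 and 1.54 in 786 AA1 and AA2, and the 786 control held no HpaII tag beside 227 MspI tags. With 3 HpaII tags in the control its R would have been 0.691, the lowest such floor among the 18 windows with no HpaII tag there. The IRX4 window, chr5:1876001-1877000, lay within 5 kb of the gene, and R was 0, 0.158 and 0 in 769 against 2.05 and 2.10 in 786 AA1 and AA2. Its 23 HpaII tags in 769 were all in AA1. The DLX2 window, chr2:172961001-172962000, also within 5 kb, had R of 0, 0.0265 and 0 in 769 against 8.04 and 3.20. Neither window had an HpaII tag in the 786 control.

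The windows of SLC7A5 and SLC16A5 both had HpaII tags in the 786 control. SLC7A5 encodes the light chain of a large neutral amino acid exchanger, and SLC16A5 a member of the monocarboxylate transporter family. The SLC7A5 window, chr16:87890001-87891000, held 0, 2 and 0 HpaII tags in 769 beside 286, 68 and 38.5 MspI tags, and 10, 272 and 110 in 786 control, AA1 and AA2. R was 4.98, 10.2 and 2.53 in the same 3 samples of 786. The SLC16A5 window, chr17:73083001-73084000, was 1 of only 2 with no HpaII tag in any 769 sample, beside 65, 65 and 84 MspI tags. In 786 it held 10, 103 and 39 HpaII tags in control, AA1 and AA2, at R of 3.48, 2.35 and 2.60. In AA1, however, 92.2% of its HpaII tags lay at a single site, against 33.3% in AA2.

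The window chr10:105421001-105422000 lay at a RefSeq start of SH3PXD2A, which encodes a scaffold protein of podosomes and invadopodia. Another start of this gene lay outside the window, at a higher coordinate. The window had the highest R of the set in 769 AA1. It was 0, 0.172 and 0.0818 in 769, against 3.23, 4.46 and 2.91 in 786 control, AA1 and AA2. These values came from 0, 11 and 2 HpaII tags in 769 and 6, 201 and 89 in 786. The window at a RefSeq start of MCF2L, a guanine nucleotide exchange factor, had 8 HpaII tags in the 786 control and R of 3.70, 1.42 and 5.58 in 786 control, AA1 and AA2. In 769 it was 0, 0.0214 and 0. Of its MspI tags in 769, 79.0% lay at 1 site, which is 34 bases past the start and held 215, 53 and 6 MspI tags and 0, 1 and 0 HpaII tags in 769, against 161 and 52 HpaII tags in 786 AA1 and AA2. In both windows the 786 control was also above the 3 samples of 769. The rule had set this for the AA samples, and both windows are among the 5 named for most tags in that control.

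The window at SNX10-AS1, chr7:26416001-26417000, had R of 0, 0.129 and 0 in 769 and of 0.630, 10.8 and 1.88 in 786 control, AA1 and AA2. The AA values rest on 538 and 161 HpaII tags and on 30 and 143 MspI tags. The GIMAP1 window, chr7:150417001-150418000, in a gene for a GTPase of lymphocytes, had R of 0, 0.0868 and 0 in 769 and 1.17, 3.50 and 1.62 in 786. Its 6 HpaII tags in the 786 control all lay at 1 site. The CRACR2A window, chr12:3862001-3863000, came closest to the upper threshold, with R of 1.04 and 1.01 in 786 AA1 and AA2, 0.917 in the 786 control, and 0.0092, 0 and 0 in 769. LINC02106, a long noncoding RNA gene, held a window at chr5:50265001-50266000 with R of 1.03 and 1.10 in the 786 AA samples, and no tag in the control.

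Some windows lay between genes or had counts that are not whole. The window chr7:1328001-1329000, between UNCX and MICALL2, held 22 HpaII tags in the 769 control, the most of any of the 32 there, 12 in AA1 and 0 in AA2. Its R was 0.143, 0.0575 and 0 in 769 and 2.42 and 1.36 in 786 AA1 and AA2, with 0 tags in the 786 control. The window chr16:29242001-29243000, between LOC101928188 and BOLA2, was the other one with no HpaII tag in any 769 sample, beside 178, 111 and 20 MspI tags, and had R of 0.308, 3.19 and 1.32 in 786. All of its HpaII tags in 786 AA1 lay at sites whose counts are not whole in some library, as was also so for the NINL window, chr20:25529001-25530000, at a gene for a centrosomal protein. In the NINL window R was 3.48 and 1.03 in 786 AA1 and AA2, and 0, 0.0098 and 0 in 769. Its sites 200, 250 and 300 bases past the centre had identical counts in every library, such as 63.083 MspI tags in the 769 control. They are not read as separate counts, and whether tags were shared among them was not tested. For the window chr7:155370001-155371000, between CNPY1 and RBM33-DT, the share of 786 AA1 tags at sites with counts that are not whole was 55.9%. Its R was 0, 0.0101 and 0 in 769 against 0.608, 1.82 and 1.71 in 786. Such sites occurred in 9 of the 32 windows and carried over 10% of the 786 AA1 tags in 6, and what made these counts fractional is not stated for these files. With all such sites left out, an alternative added after the data were seen, 28 windows met the rule, all of them among the 32.

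The other 15 windows lay at, among others, CASR (the calcium-sensing receptor of parathyroid and kidney), SPEG (a kinase of striated muscle), PLCH2 (a phospholipase C), NLRC3 (an intracellular regulator of innate immunity), AATK (a kinase), KIF26A (a kinesin) and IRF2BPL (a nuclear regulator). In the CASR window, chr3:121903001-121904000, R was 0.0146, 0.0606 and 0 in 769 and 1.34 and 2.93 in 786 AA1 and AA2. In the IRF2BPL window, chr14:77492001-77493000, it was 0, 0.0166 and 0 in 769 and 2.33, 10.3 and 2.03 in 786 control, AA1 and AA2. In the RAB34 window, chr17:27044001-27045000, it was 0, 0.0094 and 0 in 769 and 2.10 and 4.92 in the 786 AA samples, with no tag in the control. The PLCH2, SPEG and AATK windows were flatter in 786, at 1.14 and 1.08, 1.21 and 1.17, and 1.96 and 1.26 in AA1 and AA2. These 6 were described here after their values were seen.

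The 2 AA samples of 786 differed in R in single windows. R was higher in AA1 in 21 of 32 windows and higher in AA2 in the other 11. They differed by more than 2-fold in 14 windows, 9 of them higher in AA1 and 5 in AA2. The same counts were not made over all eligible windows, so nothing particular to the set is read from them. In 769, AA1 held the most HpaII tags of the 3 samples in 26 of 32 windows, a count not scaled for depth. Its HpaII library was the deepest of the 3, with 6922795 tags against 5734607 in the control and 3111094 in AA2. That library also listed HpaII tags at 279974 sites genome-wide, against 107494 in the 769 control and 136539 in AA2, and had no HpaII tag in 3.44% of eligible windows, against 13.5% and 11.5%. The part of this depth and breadth in the higher counts was not tested. Over the 3 samples of 769, 19 windows held fewer than 3 HpaII tags and 7 held more than 10, up to 34. Depth bounds the zeros: in windows with no HpaII tag, 3 tags would give an R of at most 0.189 in the 769 control and 0.0360 in AA1, but up to 0.293 in AA2, where 3 such windows have a floor above 0.2.

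The 786 control is the only sample in which the windows can be read without the rule, and its HpaII library is shallow. R of 1 or more was reached by 50.2% of eligible windows there and by 8 of the 32, which is 25.0% (exact binomial 95% interval 11.5% to 43.4%). Among the windows low in all 3 samples of 769 the share was 5.08% (61 of 1201), and among those low in all 5 samples it was 0.592% (5 of 845). The 32 windows therefore stood below dense windows at large and above the windows low in 769, as shares without a test. The 8 lay at IRS2 (the second window), SLC7A5, MCF2L, SLC16A5, SH3PXD2A, IRF2BPL and GIMAP1 and between LOC105378126 and AFDN.

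Any HpaII tag was found in the 786 control in 14 of the 32 windows (43.8%), against 60.6% of eligible windows, 10.7% of those low in 769 and 2.60% of those low in all 5 samples. The 32 windows held 69 HpaII tags in that library, where R of 1 throughout would have given 82.3 and the R of the 786 AA samples 217. Pooled R was 0.839, against 2.03 over eligible windows, 0.144 over windows low in 769 and 0.023 over windows low in all 5. The control was below both AA samples in 25 windows and above both in 2. The rule asked for high values in the AA samples only, so this gap is not read as an effect of AA. At R of 1 a median of 2.27 tags would fall in a window. In the 18 windows with none, 3 tags would have given an R of 0.691 to 2.75. A value of 1 was above this floor in 6 of them. Even the lowest of these floors was above the lower threshold of the rule. At this depth the 786 control therefore cannot be called methylated or unmethylated in any of the 18. In the 6, the zeros put R below 1 as far as counting error goes, and in the other 12 they do not. Of the 69 tags, 67 (97.1%) lay at CCGG sites that were also cut in a 786 AA sample, as were 21 of the 22 sites with a control tag. Of the 354 listed sites, however, 212 were cut in 786 AA1 and 209 in AA2, and the windows were chosen for these tags. The overlap is therefore a description only.

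Counts at single sites are a description only, since the rule chose the windows by these same tags. The 32 windows contain 387 reference CCGG sites, of which 354 had a tag in some library. HpaII tags were found at 212 sites in 786 AA1 and 209 in AA2, of which 160 were in both, and at 69 sites in any sample of 769. MspI tags were found at 303 sites over the 3 libraries of 769 and at 278 over the 2 of the 786 AA samples, which held fewer MspI tags in these windows. Of the 117 sites with HpaII tags in both 786 AA samples and at least 10 MspI tags over 769, 82 had no HpaII tag in any 769 sample. Each window had between 2 and 11 sites with HpaII tags in both 786 AA samples, with a median of 5, and 21 windows had 4 or more.

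Tags were nonetheless uneven within windows. The site with most HpaII tags took a median of 48.2% of a window's tags in 786 AA1 and 44.0% in AA2. Over eligible windows with at least 33 tags, the lowest HpaII count of the 32 windows in a 786 AA sample, the medians were 37.9% and 33.0%. More than 50% of the tags lay at 1 site in 15 windows in AA1, in 12 in AA2 and in 6 in both, and the leading site was the same in both samples in 14 windows. In the IRS2 window with signal in the control, by contrast, 11 of 15 sites were cut in both AA samples and the leading site took 27.4% and 22.4%. The TBX4 window had 9 of 16 sites cut in both. Its site at -448 bases from the centre was not one of these, with 13 HpaII tags in 786 AA1 and 0 in AA2. That site held 117 MspI tags and no HpaII tag in the 769 control, but no MspI tag in either 786 AA sample.

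**Figure D2:**
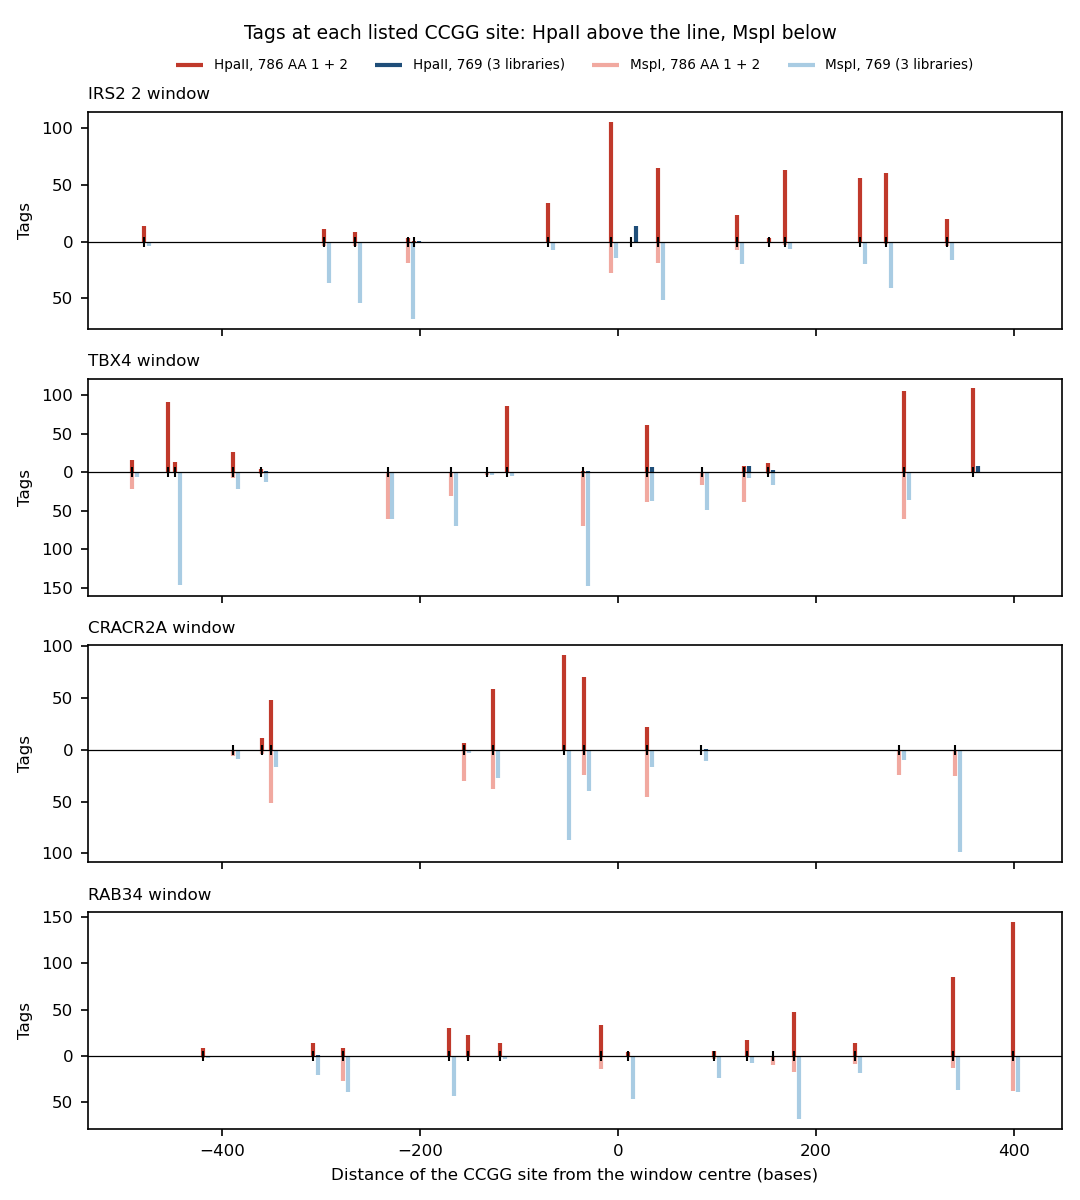
Tags at each listed CCGG site in 4 of the windows, by distance from the window centre in bases, with HpaII upward and MspI downward, 786 AA1 and AA2 summed in red tones and the 3 libraries of 769 summed in blue tones, drawn 5 bases to the right of the site (black tick) to be seen. MspI bars of 769 stand at most sites while dark blue HpaII bars are few, such as the 14 tags at 1 site of the second IRS2 window and single low bars at TBX4.

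Around the windows the pooled difference between the lines was smaller than within them, where the rule had set it. The windows around them were not chosen by R, so this fall is a description only. Pooled over the tags of all 32 windows, R was 0.0127, 0.0517 and 0.0039 in 769 control, AA1 and AA2 and 2.20 and 1.93 in 786 AA1 and AA2. In the 53 listed windows directly beside them it was 0.207, 0.261 and 0.358 in 769 and 1.41 and 1.34 in the 786 AA samples. In the 75 windows at 2 to 3 kb it was 0.896, 0.672 and 0.928 against 0.932 and 1.42, and in the 233 windows at 4 to 10 kb 0.671, 0.845 and 0.786 against 0.920 and 1.05. In the adjacent windows both 786 AA values were above all 3 of 769, and so they were, by less, at 2 to 3 kb and at 4 to 10 kb. At 4 to 10 kb the same order held around all eligible windows, with 0.426, 0.567 and 0.513 in 769 against 0.604 and 0.621. At 2 to 3 kb from eligible windows it did not, with 0.5925, 0.757 and 0.690 against 0.736 and 0.748. Around the 32 windows single distances varied widely. At -3 kb R was 0.142, 0.335 and 0.0236 in 769 against 1.03 and 1.10 in 786 AA1 and AA2, and at 8 kb 0.0984, 0.358 and 0.549 against 1.88 and 2.16. At 4 kb it was 2.20, 1.06 and 1.87 against 1.72 and 1.57. Of the 13 adjacent windows with at least 10 MspI tags in every library, 10 were at 0.2 or less in all of 769, 4 were at 1 or more in both 786 AA samples, and 2 met both limits, with 9 and 6 CCGG sites and so too few for the rule. Both of these adjoined the AATK window, chr17:79135001-79136000, on either side. The one before it, chr17:79134001-79135000, had R of 0, 0.0128 and 0 in 769 and 1.89 and 1.27 in 786 AA1 and AA2, and the one after it, chr17:79136001-79137000, had 0.0166, 0.198 and 0 against 4.27 and 1.85. At AATK the pattern therefore ran over 3 kb, and it was looked up after the values were seen. Beside all eligible windows, 3268 windows held at least 10 MspI tags in every library. Of these, 880 were at 0.2 or less in all of 769, 1325 at 1 or more in both 786 AA samples, and 31 met both limits. They leave out windows that were themselves eligible, which the 13 do not. Windows beside all eligible windows had pooled R of 1.49, 1.57 and 1.52 in 769 and 1.42 and 1.44 in the 786 AA samples. Around the 32 windows the 786 control had 0.609 in the adjacent windows, 0.770 at 2 to 3 kb and 0.696 at 4 to 10 kb, beside 0.839 in the 32 themselves.

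**Figure D3:**
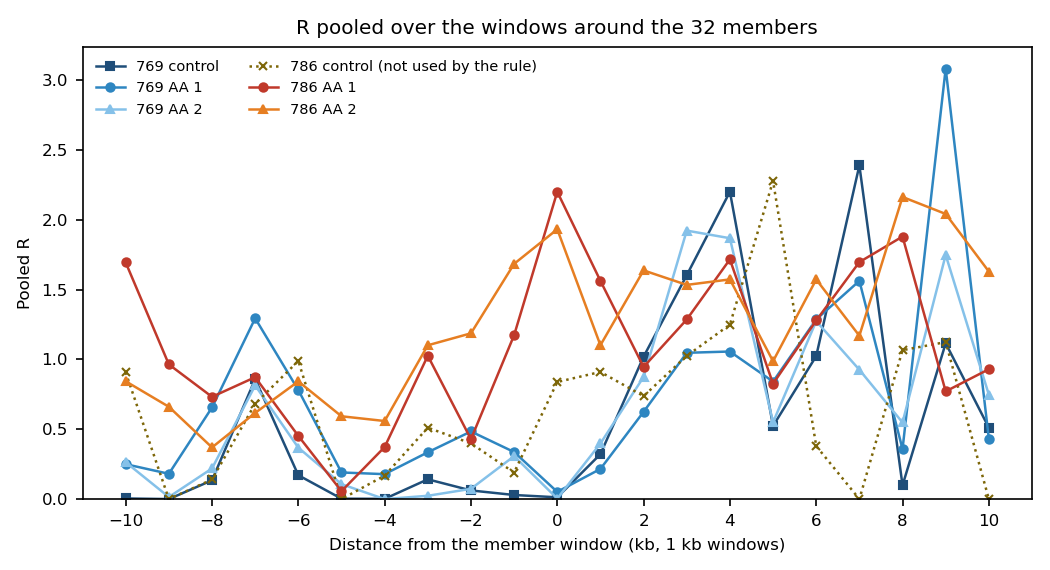
Pooled R (HpaII share over MspI share of tags, linear axis) in 1 kb windows by distance in kb from the 32 windows, 1 line per DNA sample. The 769 lines drop to 0.0517 or below at distance 0, where the 786 AA lines stand at 2.20 and 1.93 and where the rule set this gap. Farther out the lines cross at some distances, such as 4 and 9 kb, and stand apart at others, such as -3 and 8 kb.

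The windows were at the sparser end of those eligible. They held 10 to 16 CCGG sites with a median of 11.5, against a median of 13 over all eligible windows, and 21 of the 32 had 10 to 12 sites, against 45.4% of eligible windows. Only 7 had 15 or more, against 35.3%. They were spread over the genome, as 31 separate places with the 2 IRS2 windows as the only neighbours. Chromosome 7 held 5 (15.6%, against 6.46% of eligible windows), chromosomes 16 and 17 held 4 each (12.5%, against 6.36% and 6.83%), and chromosomes 10 and 13 held 3 each (9.38%, against 5.08% and 2.29%). Chromosomes 8, 9, 11, 15, 18, 19, 21 and 22 held none, and each of the others held 1 or 2.

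Fewer of the windows than of dense windows at large lay at a gene start. By the CCGG spacing of known promoters on both sides, 30 of the 32 windows could be placed against RefSeq genes. A gene start lay within the window in 6 of these 30 (20%), against 46.7% of 9482 placed eligible windows and 36.6% of 41 placed windows with the reverse pattern. The 6 were the windows of SH3PXD2A, CRACR2A, MCF2L, RAB34, SNX10-AS1 and, in the NLRC3 window, the noncoding gene LOC124903632. In or across a gene lay 22 (73.3%), against 92.3% of eligible windows, and in or across a protein-coding gene 19 (63.3%), against 85.9%. No gene lay within 5 kb of 4 windows (13.3%, against 2.85%). The part of the lower CCGG number of these windows in their position was not tested.

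Of 10 gene lists, 2 had a gene within 5 kb of a window. Homeobox genes lay near 2 of the 30 placed windows (DLX2 and IRX4, 6.67%), against 2.64% of eligible windows, and other developmental factors near 1 (TBX4, 3.33%), against 2.26%. C2H2 zinc finger genes, cadherins and protocadherins, Wnt antagonists, tumour suppressors of renal carcinoma, kidney lineage genes, germline genes, cation channels, and glutamate and GABA receptors lay near none of the 30, and near 2.38%, 0.411%, 0.0105%, 0.116%, 0.253%, 0.295%, 1.22% and 0.453% of eligible windows. 

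**Figure D4:**
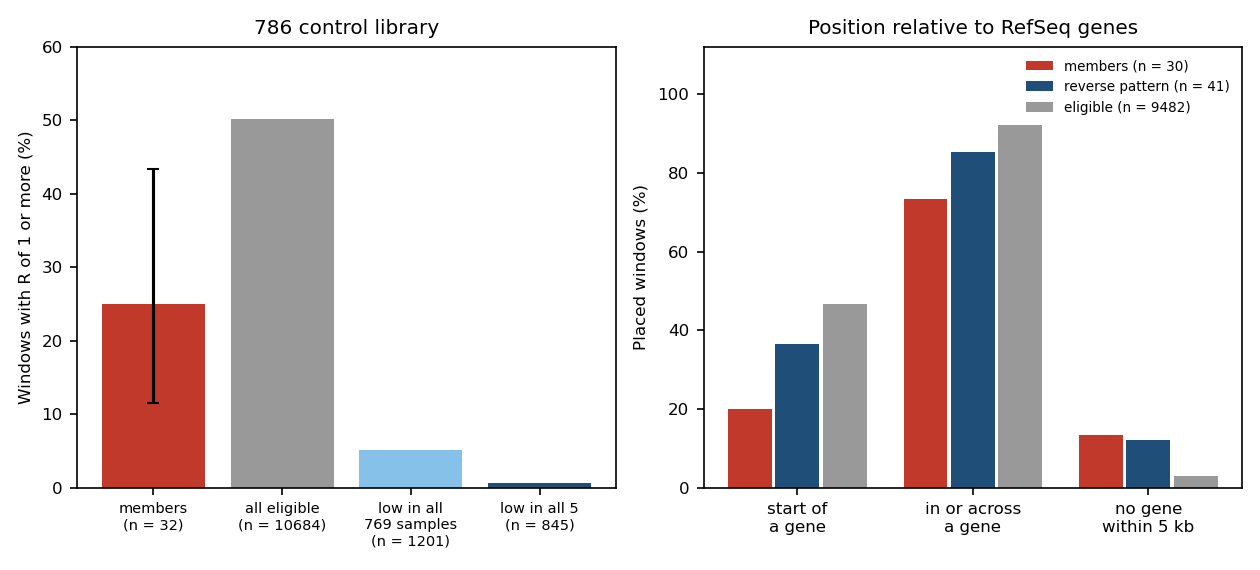
Left, percent of windows with R of 1 or more in the 786 control for the 32 windows (bar with exact binomial 95% interval), all eligible windows, those low in all 769 samples and those low in all 5 samples. Right, percent of placed windows with a gene start inside, in or across a gene, and with no gene within 5 kb, for the 30 placed windows of the set, the 41 of the reverse pattern and 9482 eligible ones; the set has 20% with a start against 46.7%.

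MspI tags, which stand for the DNA that could be cut, were compared between the lines over all eligible windows. The rule used them as a minimum in every library and as the divisor of R, so what follows for the 32 windows is a description and nothing is read from it. In edgeR's quasi-likelihood test of 786 against 769 on the 6 MspI libraries, 6 of 10684 windows (0.0562%) were called at an adjusted p under 0.05, 4 higher and 2 lower in 786. None of the 32 was among them. At an unadjusted p under 0.05 there were 934 windows, 1 of them in the set, and DESeq2 called 65 windows and none of the 32, of which 2 were under 0.05 unadjusted. The 1 was the window of PLCH2, chr1:2433001-2434000, with 34, 71 and 61 MspI tags in 769 and 244, 142 and 138 in 786. The DLX2 window held 283, 59 and 47 MspI tags in 769 and 94, 17 and 50 in 786 control, AA1 and AA2, and the second IRS2 window 150, 115 and 73 against 77, 49 and 41. Few MspI tags, as the 17 of DLX2 in 786 AA1, make a high R less certain.

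The second fit asked about AA against control within 769, in HpaII relative to MspI. The rule held all 3 samples of 769 at R of 0.2 or less, so here too the values of the 32 windows are a description. In R itself, AA1 was above the 769 control in 26 of the 32 windows and below it in 3, with both at 0 in the other 3. AA2 was above the control in 4 and below it in 6, with both at 0 in 22, so the AA samples of 769 did not move alike. Windows entered the fit where the 6 HpaII libraries together held 10 tags or more, which left 9977. Of these, edgeR's quasi-likelihood test called 125 (1.25%), 116 higher and 9 lower with AA. None of the 32 was among them, and nothing is read from this, since all 32 entered through their tags in 786 and only 7 held at least 10 HpaII tags in 769 itself. Unadjusted, 1434 windows and 1 of the 32 were under 0.05, and DESeq2 called 846 windows, none of them in the set, with 4 of the 32 under 0.05 unadjusted. The 1 was the window of SH3PXD2A, with 0 HpaII tags in the 769 control against 11 and 2 in AA1 and AA2. With 1 control, at 0 HpaII tags in 26 of the 32 windows, fitted fold changes depend on the prior count and are not given, and a change of a few tags was not detectable at this depth.

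No gap set the windows off at the thresholds. Just inside the lower threshold, the highest R in 769 was 0.172 for SH3PXD2A, 0.158 for IRX4 and 0.143 for the window between UNCX and MICALL2. Just outside it was 0.203 for chr10:8093001-8094000 and 0.208 for both chr22:46403001-46404000 and chr9:38621001-38622000. Just inside the upper threshold, the lower R of the 786 AA samples was 1.01 for CRACR2A and 1.03 for LINC02106 and NINL, and just outside it was 0.958 for chr2:25475001-25476000 and chr1:153748001-153749000 and 0.952 for chr18:12067001-12068000. With tag shares taken within the eligible windows only, 18 windows met the same numbers, 8 of them among the 32. The count was 103 without 769 AA1, 79 without 786 AA1 and 81 without 786 AA2, and 8 with the 786 control added to the rule.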

How the data were processed

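HELP-tagging counts were analysed for 6 DNA samples, each cut with HpaII and with MspI. Tags beside each cut site were made by adapter ligation, in vitro transcription and PCR, per the labels' protocols. The deposited files give expected counts of tags per CCGG site, not normalized, and not whole for 8.23% to 11.5% of the sites of a library (tolerance 1e-06). Positions are on hg19, per the submitters' processing notes. For the aligner, the tool was not given in the sources used here.

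Sites were joined on their number and summed in windows of 1000 bases from position 1. Mitochondrial and viral tags (0.41% to 10.1% of a library) were left out of shares, and tags of all other sequences were kept as nuclear. The windows and gene lists were chosen with earlier results of these data known. Windows described singly are the first 8 runs of windows within 5 kb, by number of windows and then MspI tags in 769 (1 run held 2 windows), those with 0 tags in 769, the 5 highest lower R in the 786 AA samples, the 5 with most tags in the 786 control, the 3 nearest each threshold and those at list genes, 17 in all, and others are named as chosen after their values were seen. RefSeq promoters (GRCh38.p14) were found in the files by the spacing and numbering of their CCGG sites. Of 8093 tried, 4339 with at least 4 matching sites were found and 4311 were in genome order, and 12920 after smaller promoters beside them were added. A window was placed where the promoters on both sides lay equally far apart in both builds (within 50 bases). Its ends were then shifted by the offset between builds of the promoter on its left and compared with RefSeq gene coordinates. Promoters of chromosome 8 were not used.

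For tests, the expected counts were rounded and fitted over all windows with edgeR 4.0.16 in R 4.3.3 (quasi-likelihood, TMM within each enzyme, Benjamini-Hochberg adjustment, called under 0.05), with DESeq2 1.42.0 as an alternative. The MspI fit had terms for line and treatment. The other fit had 1 level per DNA sample and terms for enzyme, enzyme by line, and enzyme by AA within each line. Both, and the rule itself, were tested on simulated data. Python 3.11.15 with numpy 2.4.6, pandas 2.3.3, scipy 1.17.1 and matplotlib 3.10.9 did the rest. Alternatives were other thresholds, tag shares, filters and scalings, thinning, a replicate block and leaving out each DNA sample.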

Additional observations from a re-analysis of the deposited data

How the results depend on the processing

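The number of windows that met the rule was 91 with at least 8 CCGG sites, 7 with at least 15, 7 with R limits of 0.1 and 2, 80 with limits of 0.3 and 0.7, 18 with shares within eligible windows (8 shared with the 32), 72 without the leading site of each window (20 shared) and 8 with the 786 control added. It ran from 37 to 103 when a DNA sample was left out, with 103, 79 and 81 without 769 AA1, 786 AA1 and 786 AA2. It stayed within 1.5 times of 32 under MspI minimums of 20 and 5 tags (25 and 43), all tags (31), thinning (36), windows from position 0 (30) and whole counts only (28), the last 2 added after the data were seen. The share of windows with R of 1 or more in the 786 control was 15.6% without leading sites and 23.1% without the 6 windows rich in counts that are not whole. MspI calls over all windows were 2 without TMM, 65 with DESeq2, 1 with no filter, 13 with a replicate block, and 1 to 6 when a DNA sample was left out, with 1 without the control or AA2 of either line. AA calls in 769 were 66 without TMM, 846 with DESeq2, 312 with no HpaII filter, 56 with a replicate block, and 106 to 348 when a DNA sample was left out, with 348, 308, 240 and 276 without 769 AA1, 769 AA2, 786 AA1 and 786 AA2. None of the windows of the set that were tested was called in the 10 alternatives of either test (32 in each, but 7 where 769 alone had to hold 10 HpaII tags), with 1 to 4 and 1 to 6 of them under an unadjusted 0.05. The numbers of the samples did not pair them: deviations of samples with the same label correlated at 0.015, -0.039 and 0.034 across windows. Leaving out an AA sample leaves 1 in its arm, assumed to vary like the others. Depth limits the 786 control most, where 18 windows held no HpaII tag.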
